A study of Mus musculus with 16 samples.

Results

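Macrophage and leukocyte genes were examined in tibialis anterior, a fast muscle of the lower leg, of mouse offspring. The group was a fixed list of 36 genes: pan-leukocyte genes, macrophage lineage genes and receptors, complement C1q, integrins, MHC class II genes, chemokine genes and the calprotectin subunits. Members were found through the RefSeq accession of each array probe. Of the 36, 35 had a probe and were tested among 24826 genes in all; Cd68 had no matched probe. The 35 were covered by 56 probes, and 30 of them were well above background on all 16 arrays. Of the 36, 26 are genes that microglia, the macrophages of the brain, also express (25 tested), and 10 are little or not expressed by resting microglia.

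Control dams ate normally, and undernourished dams had their food cut by 50% during gestation week 3. Offspring of either kind of dam ate freely (AL, ad libitum) or were under calorie restriction (CR). The 4 groups are named by dam, then by offspring diet, from control AL to undernourished CR. Each group had 8 mice whose RNA was pooled in pairs, so that a group was 4 arrays and each array averaged 2 animals. Strain, sex, age and litter are not given in the sources used here, nor is the degree or duration of the offspring's calorie restriction.

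Macrophages reside in skeletal muscle between the fibres, where they clear debris and take part in repair after injury. They depend on the receptor Csf1r and the transcription factor PU.1 (Spi1), take up coated particles through Fc and complement receptors, and secrete the C1q chains that start the classical complement pathway. Monocytes that enter from blood carry Ccr2, and antigen-presenting cells display peptides on MHC class II. In whole muscle these transcripts come from a small share of the cells, so fewer macrophages and less RNA per macrophage cannot be told apart here.

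Levels are given as log2 of the background-subtracted signal minus the 75th percentile of the same array. All 13 skeletal muscle markers were well above background on every array of each group. The AL arrays also carried brain transcripts: the sum of the linear signals of 38 brain markers ranged from 82.8 to 369 on control AL arrays, from 59.4 to 116 on undernourished AL, and from 54.3 to 74.5 over the CR arrays. Relative to the highest array, the median brain marker stood at 1, 0.798, 0.213 and 0.123 on control AL arrays 1 to 4, at 0.208, 0.146, 0.123 and 0.048 on undernourished AL, and between 0.0141 and 0.0205 on CR. Control AL also carried skin transcripts, with 15 skin markers summing to between 3.35 and 80.1, against 3.63 to 4.25 on control CR. AL and CR arrays lay on different slides scanned on different days, so the offspring diet cannot be told apart from slide and scan day. Each slide held both maternal groups. The labels do not say that same-numbered pools share a litter, and p-values measure the spread between pools.

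**Figure D1:**
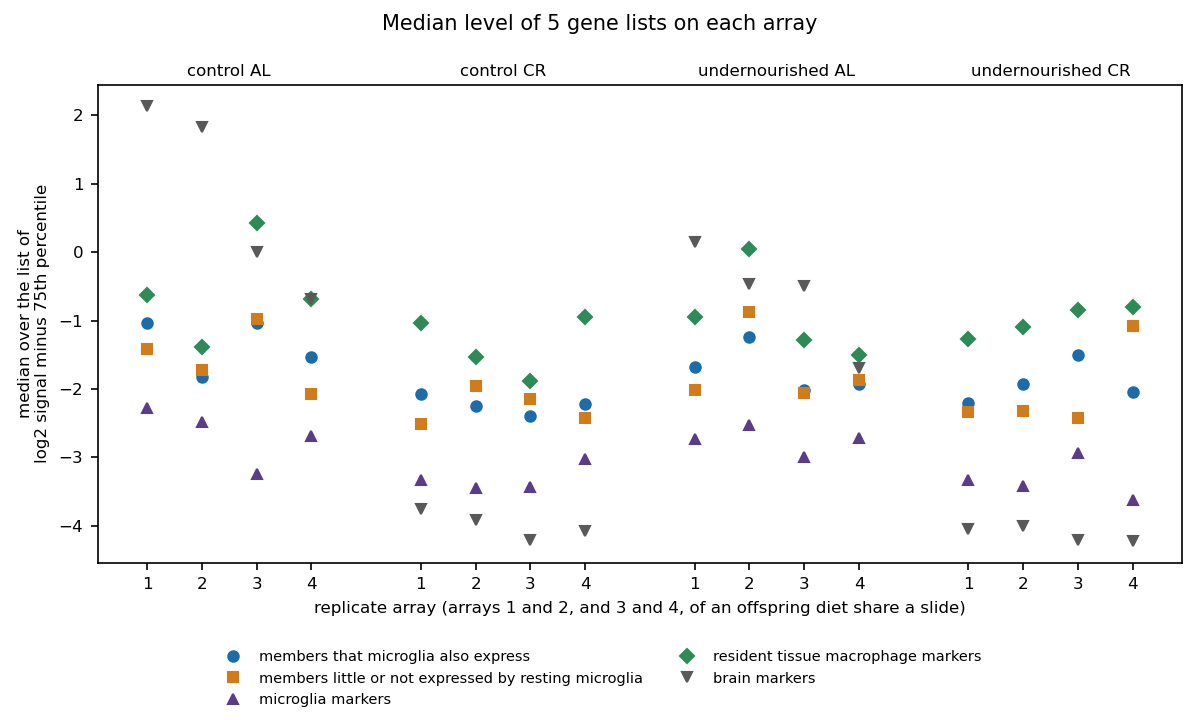
Median over 5 gene lists of the log2 signal minus the 75th percentile on each of the 16 arrays (x axis, replicate 1 to 4 within each group; points are single arrays). The median of the microglia-shared members ran from -1.83 to -1.04 on control AL and from -2.40 to -2.07 on control CR, and the brain markers ran from -0.68 to 2.13 and from -4.20 to -3.76 on the same arrays.

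Promoter sequences are shown for a few of the members on which the comparisons turn: 300 bases around the annotated start, from RefSeq (GRCm38.p6), 5′ to 3′ on the strand of the gene. Capitals mark the match to a searched motif. These were the core of the PU.1 site, GAGGAAG, and the inverted CCAAT box of MHC class II promoters, TGATTGG, each on both strands and not overlapping each other by their letters. Ctss (chr3:95526536-95526835, plus strand) has the PU.1 core on the opposite strand, beginning 1 base before its start. C1qb (chr4:136886151-136886450, minus strand) has neither motif in its window, whereas C1qc (chr4:136892865-136893164, minus strand), a neighbouring gene on chromosome 4, has the PU.1 core on the opposite strand, beginning 194 bases before its start. H2-Aa (chr17:34287774-34288073, minus strand) has the CCAAT box 50 bases before its start.
Ctss: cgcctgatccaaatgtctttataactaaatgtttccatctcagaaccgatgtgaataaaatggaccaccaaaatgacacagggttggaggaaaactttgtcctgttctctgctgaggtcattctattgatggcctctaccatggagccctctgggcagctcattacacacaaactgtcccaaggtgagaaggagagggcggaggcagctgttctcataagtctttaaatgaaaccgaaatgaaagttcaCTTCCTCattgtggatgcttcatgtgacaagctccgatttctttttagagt
C1qb: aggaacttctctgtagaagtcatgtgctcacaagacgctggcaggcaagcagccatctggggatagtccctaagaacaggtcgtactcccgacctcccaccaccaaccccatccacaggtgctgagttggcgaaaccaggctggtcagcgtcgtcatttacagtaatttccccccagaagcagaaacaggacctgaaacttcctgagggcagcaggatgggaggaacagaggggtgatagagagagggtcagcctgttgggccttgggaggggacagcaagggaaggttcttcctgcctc
C1qc: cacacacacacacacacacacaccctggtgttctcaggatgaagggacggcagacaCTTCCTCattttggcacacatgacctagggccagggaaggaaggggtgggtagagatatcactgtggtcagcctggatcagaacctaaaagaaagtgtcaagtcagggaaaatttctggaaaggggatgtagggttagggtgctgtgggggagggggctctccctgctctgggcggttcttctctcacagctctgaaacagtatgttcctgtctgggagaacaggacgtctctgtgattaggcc
H2-Aa: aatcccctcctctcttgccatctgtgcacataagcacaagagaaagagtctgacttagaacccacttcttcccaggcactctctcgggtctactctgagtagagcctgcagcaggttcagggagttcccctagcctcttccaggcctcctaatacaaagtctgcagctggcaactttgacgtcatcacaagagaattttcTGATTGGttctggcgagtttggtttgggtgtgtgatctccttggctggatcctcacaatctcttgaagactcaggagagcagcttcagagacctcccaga
Promoters were matched for 25 of the 36 members. The PU.1 core occurred in 9 of these (Laptm5, Cd53, Ctss, Fcgr3, Trem2, C1qc, Mrc1, Itgam and S100a8), beside 15.4% of 27025 genes and 13.6% of 32851 promoters of that length. The CCAAT box occurred in 2 (Cd68 and H2-Aa), beside 9% of genes and 7.82% of promoters. A match describes letters in the window and is not evidence of a bound site.

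Calorie restriction was first compared with free feeding among offspring of control dams. Of the 35 members, 22 fell and none rose (limma, Benjamini-Hochberg adjusted p under 0.05 over all 24826 genes), beside 15.1% of all genes that fell and 17.2% that rose. The median difference of the members was -0.87, against 0.07 over all genes, and 34 of the 35 lay below 0. The 4 CR arrays lay wholly below the 4 AL arrays for 21 members, beside 14.5% of all genes. Among the microglia-shared members 19 of 25 fell, with a median of -0.96. Among the others 3 of 10 fell (Ccr2, H2-Aa and H2-Ab1), with a median of -0.55. Control AL array 1 held the highest of the 16 values for 13 members, undernourished AL array 2 for 10 and control AL array 3 for 9. Control AL array 1 also had the most brain transcript. Control AL array 2, next in brain transcript, held the highest value for 0 members. A gene that followed brain transcript would also peak on array 1, so this count cannot decide whether members did.

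The split of calls over all genes depended on the scaling. Of all genes called in this comparison 53.2% were higher, against 63.0% with quantile normalization, 79.6% with scaling to the array median, 81.4% with the authors' deposited log2 values and 34.1% with normexp background correction. The median of all genes moved from 0.07 to 0.16, 0.37, 0.29 and -0.17, and that of the members from -0.87 to -0.69, -0.56, -0.33 and -0.66. The members called lower numbered 17, 15, 14 and 28 in that order, beside 13.2%, 9.81%, 10.5% and 32% of all genes, and none was called higher.

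Among offspring of undernourished dams 3 members fell with calorie restriction (C1qb, Itgb2 and H2-Aa) and none rose, beside 9.86% of all genes that fell and 10.4% that rose. The median of the 35 was -0.28, against -0.0035 over all genes, and 27 lay below 0. Without undernourished AL array 2, or without undernourished CR array 1, 2 or 4, only 1 member was called, beside 7.63%, 7.16%, 7.74% and 8.91% of all genes. Normexp background correction gave 12 of 35 lower, beside 40.7% of all genes. Scaling to the array median gave 1 (H2-Aa), beside 5.89%. The authors' deposited log2 values gave none lower, beside 6.15% of all genes, and 1 member higher (Mrc1), beside 41.6%. C1qb and Itgb2 were the 2 members with no overlap between the arrays of the 2 groups, beside 12.6% of all genes. The difference between the 2 diet effects was tested as an interaction: no member passed (limma, adjusted p 0.49 to 0.98), beside 0.00403% of all genes that passed as higher, although 10 had an unadjusted p under 0.05, beside 9.66% of all genes. The smaller number of calls among offspring of undernourished dams is therefore not shown to be a different response.

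**Figure D2:**
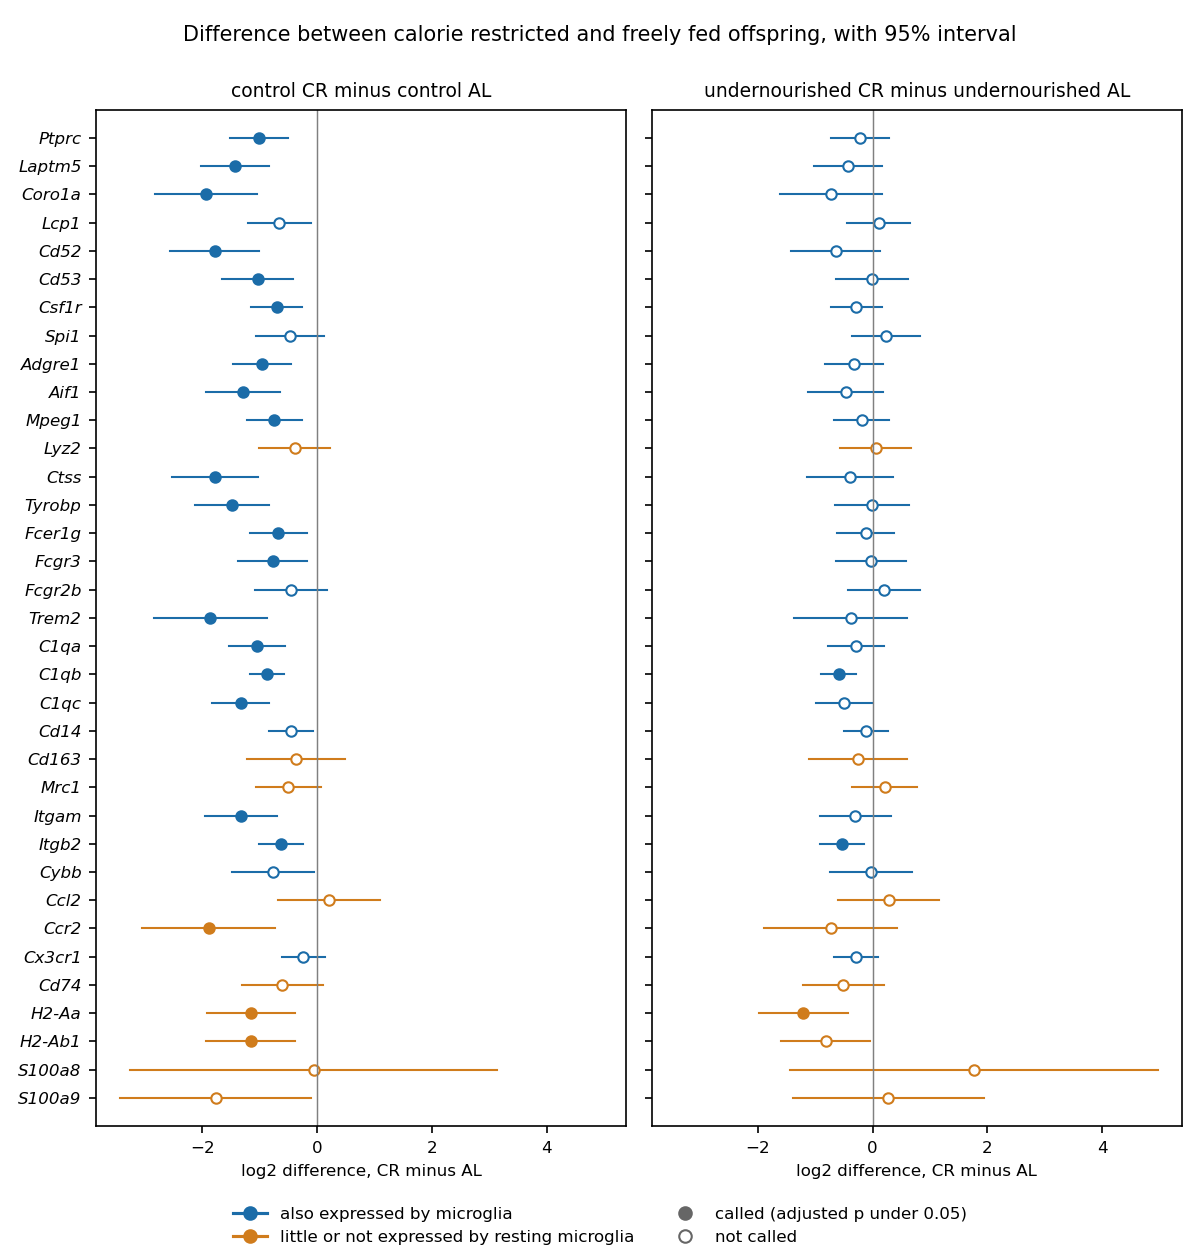
Log2 difference (CR minus AL) of the 35 members with its 95% interval, for offspring of control dams (left) and of undernourished dams (right); filled points passed the test. On the left 22 members are filled and 34 lie below 0; on the right C1qb, Itgb2 and H2-Aa are filled.

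Microglia were examined beside these values because the AL arrays carried brain transcripts. Of 10 microglia markers 9 were tested, and 6 fell in offspring of control dams, beside 15.1% of all genes. Among them were P2ry12 (-3.23 ± 0.41, log2 difference ± SE), P2ry13 (-2.18 ± 0.60), Fcrls (-1.32 ± 0.24) and Olfml3 (-0.72 ± 0.24). P2ry12, a purinergic receptor that is sparse in other macrophages, fell more than any member of the list. The summed signal of the 9 ranged from 5.80 to 8.63 on control AL arrays and from 3.62 to 4.16 on control CR, and Gpr34, which also passed as lower, was well above background on no control CR array, so its size is not given. In offspring of undernourished dams 1 of the 9 fell, Fcrls (-0.83 ± 0.24), beside 9.86% of all genes, with sums of 4.86 to 5.73 on AL and 4.06 to 5.71 on CR.

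With the brain marker level of each array as a covariate, 5 members were lower in control CR, beside 7.69% of all genes: C1qb, Itgb2, Spi1, Adgre1 and C1qc, of which all but Spi1 were among the 22. With the microglia marker level as a covariate, a fit added after seeing the data, C1qb and Itgb2 remained, beside 4.91% of all genes. Without control AL arrays 1 and 2, 13 members fell, 10 of them among the 22, beside 9.95%. Without 5 arrays that carried skin or liver RNA (control AL 1 to 3, undernourished AL 3 and undernourished CR 2) none fell in either diet comparison, beside 2.46% of all genes in offspring of control dams and 7.55% in offspring of undernourished dams. That fit left 1 control AL array, whose spread is taken to be that of the other groups, and the median of the members was -0.70. In all 4 fits the median of the members lay between -0.88 and -0.70, and that of all genes between -0.11 and -0.04. Without these changes the medians were -0.87 and 0.07.

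The pan-leukocyte group holds surface proteins of all white cells and their actin-bundling and actin-remodelling partners. In offspring of control dams 5 of its 6 members fell: Ptprc (CD45), Laptm5, Coro1a, Cd52 and Cd53. Laptm5, a lysosomal protein of blood cells, read -1.90, -2.87, -2.28 and -2.90 on control AL arrays 1 to 4, -3.71, -3.87, -4.45 and -3.63 on control CR, -3.40, -2.47, -3.53 and -3.41 on undernourished AL, and -3.76, -3.83, -3.24 and -3.69 on undernourished CR. Its control groups did not overlap, and the difference was -1.43 ± 0.28 (SE; 2.69-fold lower; adjusted p = 0.0015). Cd52, a small lipid-anchored surface glycoprotein, read -1.04, -1.84, -1.91 and -1.94 on control AL arrays 1 to 4, -3.59, -3.88, -3.66 and -2.70 on control CR, -2.20, -1.36, -3.25 and -2.87 on undernourished AL, and -3.40, -3.17, -2.80 and -2.86 on undernourished CR. Its control groups did not overlap either, and the difference was -1.78 ± 0.36 (adjusted p = 0.0020).

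Coro1a, an actin-binding coronin of leukocytes that neurons also express, read 1.60, 0.92, 0.10 and -0.70 on control AL arrays 1 to 4, -1.49, -1.32, -1.79 and -1.19 on control CR, -0.06, -0.26, -1.13 and -1.41 on undernourished AL, and -1.46, -1.57, -0.94 and -1.79 on undernourished CR. Its order over the 4 control AL arrays was that of the brain markers, and with the brain marker level as a covariate the difference of -1.93 ± 0.41 became -0.70 (adjusted p = 0.20). Ptprc ranged from -2.84 to -2.20 on control AL and from -3.70 to -3.26 on control CR, a difference of -1.01 ± 0.24. Cd53, a tetraspanin, differed by -1.03 ± 0.29 and was well above background on 2 of 4 undernourished AL arrays. Lcp1, an actin bundler, was -0.66 ± 0.26 (adjusted p = 0.063) and was not called, although its control arrays did not overlap. In offspring of undernourished dams no member of this group passed, and differences ran from -0.72 (Coro1a) to 0.11 (Lcp1).

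Of the macrophage lineage genes, 5 of the 7 measured fell in offspring of control dams: Csf1r, Adgre1, Aif1, Mpeg1 and Ctss. Ctss (cathepsin S, a protease that trims the class II invariant chain) read 2.15, 1.84, 1.42 and 0.84 on control AL arrays 1 to 4, -0.18, -0.39, -0.38 and 0.10 on control CR, 0.80, 1.55, 0.33 and 0.35 on undernourished AL, and -0.34, 0.04, 0.54 and 1.20 on undernourished CR. The lowest control AL value lay above the highest control CR value, and Ctss was 3.43-fold lower (-1.78 ± 0.35, adjusted p = 0.0016). With the brain marker level as a covariate it was -1.11 (adjusted p = 0.10).

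Adgre1, which encodes the macrophage antigen F4/80, read -1.30, -1.83, -1.02 and -1.32 on control AL arrays 1 to 4, -2.07, -2.62, -2.40 and -2.22 on control CR, -1.91, -0.89, -1.90 and -1.56 on undernourished AL, and -2.21, -1.93, -1.50 and -1.94 on undernourished CR. It was 1.95-fold lower in control CR (-0.96 ± 0.24, adjusted p = 0.0063), and -1.18 with the brain marker level as a covariate (adjusted p = 0.032). Aif1 (Iba1), an actin-binding protein used as a microglia and macrophage marker, read 0.06, -0.12, -1.0 and -1.28 on control AL arrays 1 to 4, -1.70, -1.94, -2.17 and -1.66 on control CR, -0.99, -1.08, -1.85 and -1.75 on undernourished AL, and -2.09, -1.90, -1.34 and -2.22 on undernourished CR. Its difference was -1.28 ± 0.30 without and -0.46 with that covariate (adjusted p = 0.0050 and 0.31). The covariate left the Adgre1 difference as large as before and the Aif1 difference smaller.

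Csf1r, the receptor for CSF1 and IL-34, fell by 0.71 ± 0.21, and Mpeg1 (perforin-2) fell by 0.74 ± 0.23. Spi1, the transcription factor PU.1, was close to background: it was well above it on 1 of 4 control AL arrays, 1 of 4 control CR, none of 4 undernourished AL and 3 of 4 undernourished CR, so no fold is given. Lyz2, the lysozyme of macrophages and neutrophils and a gene that resting microglia express little, read -3.06, -3.27, -2.34 and -3.28 on control AL arrays 1 to 4, -3.24, -3.70, -3.45 and -3.12 on control CR, -3.18, -2.05, -3.27 and -3.07 on undernourished AL, and -3.15, -3.22, -2.67 and -2.31 on undernourished CR. The ranges of the groups overlapped, and neither difference passed (-0.39 ± 0.29 and 0.05 ± 0.29).

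**Figure D3:**
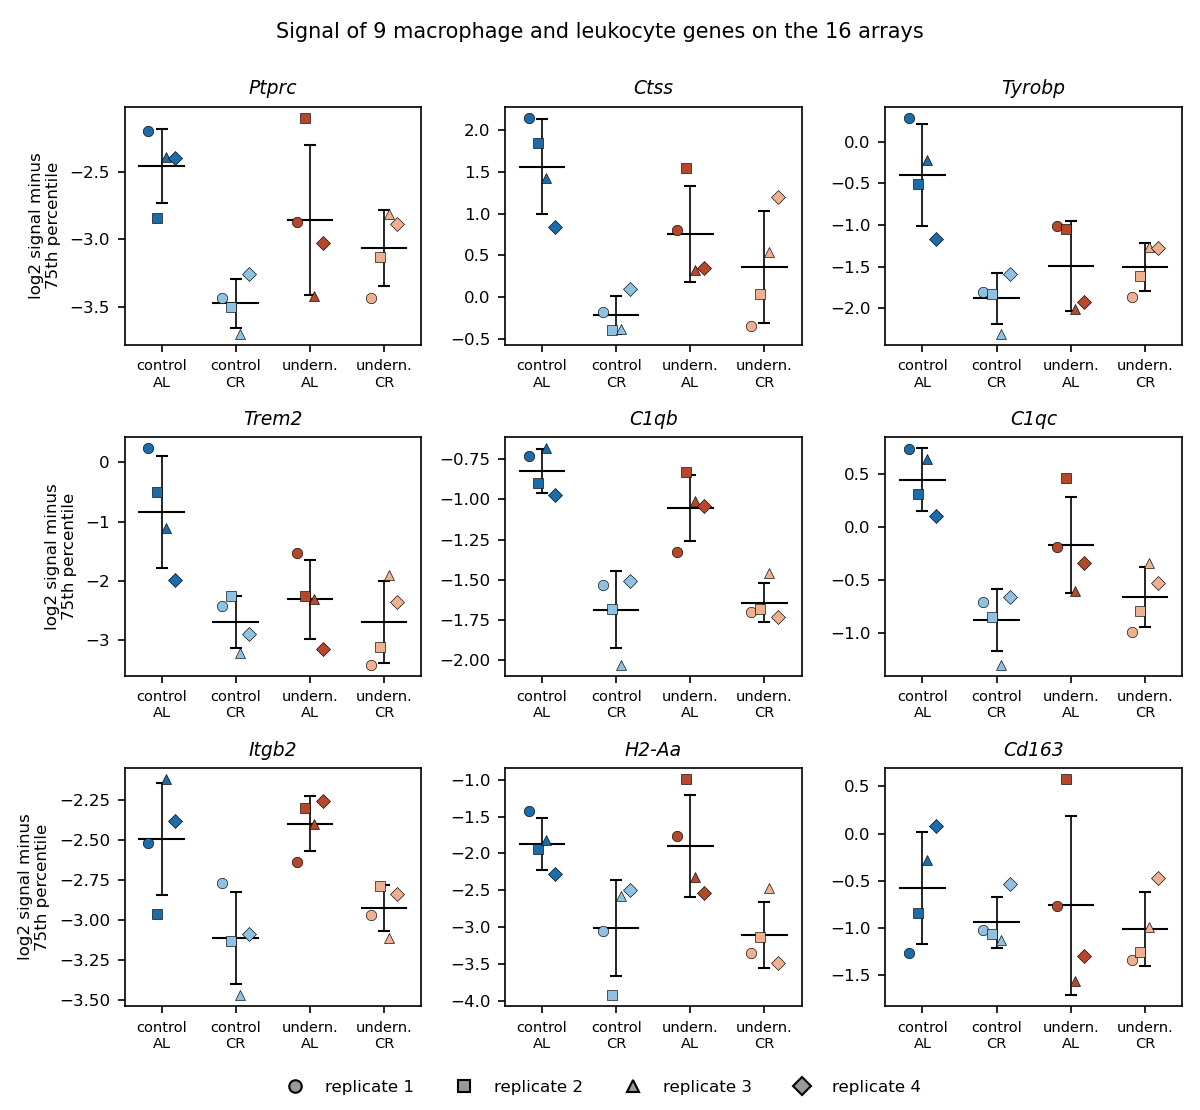
Log2 signal minus the 75th percentile (y axis) of 9 members on each array of the 4 groups (x axis); symbols are replicates 1 to 4, bars the group mean and SD (n = 4). C1qb and C1qc do not overlap between control AL and control CR, and Cd163 overlaps among all groups.

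Tyrobp (DAP12) and Fcer1g are ITAM adaptors, the short signalling chains through which Trem2 and the activating Fc receptors act. In offspring of control dams 4 of the 5 members of this group fell: Tyrobp, Fcer1g, Fcgr3 and Trem2. Tyrobp read 0.29, -0.51, -0.22 and -1.17 on control AL arrays 1 to 4, -1.80, -1.83, -2.31 and -1.59 on control CR, -1.01, -1.05, -2.01 and -1.92 on undernourished AL, and -1.86, -1.61, -1.26 and -1.28 on undernourished CR. The control groups did not overlap (-1.48 ± 0.30, 2.79-fold lower, adjusted p = 0.0022), while in offspring of undernourished dams the difference was -0.01 ± 0.30. Trem2, a lipid-sensing receptor of microglia and some tissue macrophages, read 0.24, -0.50, -1.11 and -1.99 on control AL arrays 1 to 4, -2.42, -2.25, -3.21 and -2.90 on control CR, -1.52, -2.26, -2.31 and -3.14 on undernourished AL, and -3.41, -3.11, -1.89 and -2.35 on undernourished CR. It was 3.62-fold lower in control CR (-1.85 ± 0.46, adjusted p = 0.0069), and its order over the control AL arrays was again that of the brain markers.

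Fcer1g read -0.47, -0.92, -0.28 and -0.97 on control AL arrays 1 to 4, -0.97, -1.16, -1.94 and -1.26 on control CR, -1.07, -0.40, -1.25 and -0.96 on undernourished AL, and -1.30, -1.13, -0.82 and -0.91 on undernourished CR. The control groups did not overlap, although the closest arrays both round to -0.97, and the difference was -0.68 ± 0.23 (adjusted p = 0.038). Fcgr3, an activating IgG receptor, was -0.77 ± 0.28 (adjusted p = 0.049), just inside the threshold. Fcgr2b, the inhibitory IgG receptor, was not called (-0.46 ± 0.29, adjusted p = 0.26).

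All 3 chains of C1q, which are encoded side by side and assemble into 1 recognition molecule, fell in offspring of control dams. C1qa read -0.28, -0.66, -0.13 and -0.85 on control AL arrays 1 to 4, -1.37, -1.64, -1.84 and -1.26 on control CR, -1.22, -0.34, -1.30 and -1.06 on undernourished AL, and -1.59, -1.43, -0.92 and -1.13 on undernourished CR. C1qb read -0.73, -0.90, -0.68 and -0.97 on control AL arrays 1 to 4, -1.53, -1.68, -2.03 and -1.51 on control CR, -1.33, -0.83, -1.01 and -1.04 on undernourished AL, and -1.70, -1.68, -1.46 and -1.73 on undernourished CR. C1qc read 0.74, 0.31, 0.64 and 0.10 on control AL arrays 1 to 4, -0.71, -0.85, -1.30 and -0.66 on control CR, -0.19, 0.46, -0.60 and -0.34 on undernourished AL, and -0.99, -0.79, -0.34 and -0.53 on undernourished CR. For each chain the 4 control CR values lay below the 4 control AL values. The differences were -1.04 ± 0.23 for C1qa (adjusted p = 0.0034), -0.87 ± 0.14 for C1qb (adjusted p = 0.00045, the smallest among the members) and -1.33 ± 0.23 for C1qc (adjusted p = 0.00069). In offspring of undernourished dams C1qb fell by 0.59 ± 0.14 (1.51-fold, adjusted p = 0.0096), again without overlap, whereas C1qa (-0.29 ± 0.23) and C1qc (-0.50 ± 0.23, adjusted p = 0.14) did not pass. This C1qb call was kept with quantile normalization, with normexp background correction and with any single array left out. It was lost with scaling to the array median and with the authors' deposited log2 values.

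C1qb varied little within groups, with SDs of 0.12 to 0.24 against 0.26 to 0.45 for the other chains. In offspring of control dams its difference was -0.88 against control AL arrays 1 and 2, which carried the most brain transcript, and -0.86 against arrays 3 and 4. With the brain marker level as a covariate it was -0.85 (adjusted p = 0.014). Without the 5 arrays that carried skin or liver RNA it was -0.72 (adjusted p = 0.13).

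The pattern recognition and resident macrophage receptors gave no call in either diet comparison. Cd14, the co-receptor for lipopolysaccharide, read -1.46, -1.84, -1.04 and -1.53 on control AL arrays 1 to 4, -1.73, -1.85, -2.27 and -1.83 on control CR, -1.68, -1.24, -1.35 and -1.49 on undernourished AL, and -1.86, -1.62, -1.39 and -1.36 on undernourished CR. Its differences were -0.45 ± 0.18 (adjusted p = 0.066) and -0.12 ± 0.18. Cd163, the haemoglobin scavenger receptor of perivascular and muscle macrophages, read -1.27, -0.84, -0.28 and 0.08 on control AL arrays 1 to 4, -1.02, -1.07, -1.13 and -0.54 on control CR, -0.77, 0.58, -1.56 and -1.30 on undernourished AL, and -1.34, -1.26, -0.99 and -0.47 on undernourished CR. The groups overlapped throughout, undernourished AL array 2 stood highest, and the differences were -0.36 ± 0.40 and -0.25 ± 0.40.

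Mrc1, the mannose receptor CD206 of resident macrophages, read -1.24, -1.52, -0.59 and -0.74 on control AL arrays 1 to 4, -1.17, -1.74, -1.65 and -1.52 on control CR, -1.37, -0.54, -1.81 and -1.41 on undernourished AL, and -1.27, -1.20, -0.63 and -1.17 on undernourished CR. Control AL arrays 3 and 4 were higher than arrays 1 and 2, which carried more brain transcript, and neither difference passed (-0.50 ± 0.26, adjusted p = 0.17, and 0.21 ± 0.26). The wider list of resident tissue macrophage markers had 13 genes tested, of which 1 fell in offspring of control dams, beside 15.1% of all genes: Clec10a (-1.33 ± 0.41), a C-type lectin. F13a1 was next at -0.86 ± 0.32 (adjusted p = 0.056). The summed signal of the 13 ranged from 38.1 to 64.4 on control AL arrays and from 46.2 to 67.0 on control CR, and the median difference was -0.33. No marker of the list changed in offspring of undernourished dams (limma), with a median of 0.05.

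Itgam and Itgb2 form the integrin Mac-1, the complement receptor of macrophages and neutrophils. Itgam (CD11b) read -4.39, -4.37, -4.81 and -4.92 on control AL arrays 1 to 4, -5.55, -6.26, -5.97 and -6.02 on control CR, -6.04, -4.33, -5.61 and -5.43 on undernourished AL, and -5.63, -5.80, -5.30 and -5.89 on undernourished CR. The control groups did not overlap (-1.33 ± 0.29, 2.51-fold lower, adjusted p = 0.0032), and in undernourished AL the probe was well above background on 1 array. Itgb2 (CD18) read -2.52, -2.96, -2.12 and -2.38 on control AL arrays 1 to 4, -2.77, -3.13, -3.47 and -3.09 on control CR, -2.64, -2.30, -2.40 and -2.26 on undernourished AL, and -2.97, -2.79, -3.11 and -2.84 on undernourished CR. It fell in both settings, by 0.62 ± 0.18 in offspring of control dams (adjusted p = 0.016), where array 2 of control AL lay among the CR values, and by 0.53 ± 0.18 in offspring of undernourished dams (adjusted p = 0.0499), where the groups did not overlap. Both calls depended on the scaling: neither was made with quantile normalization, scaling to the array median or the authors' deposited log2 values. The call in offspring of undernourished dams was also lost with the replicate number as a block over all groups and with the slide as a random block.

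Cybb, the catalytic subunit of the phagocyte oxidase, read -3.47, -4.38, -3.04 and -3.27 on control AL arrays 1 to 4, -4.11, -4.12, -4.96 and -4.04 on control CR, -3.67, -3.12, -4.22 and -3.69 on undernourished AL, and -4.44, -3.79, -3.39 and -3.21 on undernourished CR. The groups overlapped and neither difference passed (-0.77 ± 0.34, adjusted p = 0.094, and -0.03 ± 0.34). Of 6 other oxidase subunits 3 fell in offspring of control dams, beside 15.1% of all genes, among them Cyba (-0.63 ± 0.19) and Ncf1 (-0.48 ± 0.16). Ncf1 also fell in offspring of undernourished dams, by 0.67 ± 0.16.

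Ccr2, the receptor that brings monocytes out of marrow and blood, read -2.55, -4.27, -3.77 and -3.57 on control AL arrays 1 to 4, -5.75, -5.66, -5.62 and -4.65 on control CR, -4.05, -2.70, -5.81 and -4.72 on undernourished AL, and -5.33, -4.95, -4.32 and -5.61 on undernourished CR. It fell 3.69-fold in offspring of control dams without overlap (-1.88 ± 0.54, adjusted p = 0.016) and did not pass in offspring of undernourished dams (-0.73 ± 0.54, adjusted p = 0.36). Ccr2 was well above background on 3 of 4 undernourished AL arrays. Ccl2, its ligand, read -3.38, -4.17, -3.03 and -3.60 on control AL arrays 1 to 4, -3.39, -3.90, -2.84 and -3.23 on control CR, -3.54, -3.35, -4.87 and -2.34 on undernourished AL, and -3.06, -3.31, -3.65 and -2.96 on undernourished CR. No group stood apart, and the differences were 0.21 ± 0.41 and 0.28 ± 0.41.

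Cx3cr1, the fractalkine receptor of microglia and patrolling monocytes, read -4.08, -3.93, -3.60 and -3.29 on control AL arrays 1 to 4, -4.09, -3.79, -4.17 and -3.80 on control CR, -3.19, -3.76, -3.57 and -3.61 on undernourished AL, and -3.93, -3.70, -3.99 and -3.66 on undernourished CR with its brighter probe. These values barely moved (-0.24 ± 0.18 and -0.29 ± 0.18, neither passing). The dimmer probe, well above background on 10 of 16 arrays, read -2.59, -3.40, -4.93 and -5.13 on control AL and -7.37, -7.32, -6.20 and -6.26 on control CR, a difference of -2.77. The 2 probes of Cx3cr1 thus disagreed, and the dimmer one followed the brain marker order. Of the 38 probes of the 17 members with more than 1 probe, all 38 were lower in control CR, 3 of them not well above background on any array. With the mean of its 2 probes Cx3cr1 was called lower in offspring of control dams. With normexp background correction its brighter probe was called lower in both diet comparisons, beside 32% and 40.7% of all genes. Which Cx3cr1 probe reports the transcript was not tested.

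Among MHC class II genes, H2-Aa and H2-Ab1, the alpha and beta chains of I-A, fell in offspring of control dams, and the invariant chain Cd74 did not pass. H2-Aa read -1.43, -1.94, -1.82 and -2.28 on control AL arrays 1 to 4, -3.05, -3.92, -2.58 and -2.50 on control CR, -1.77, -0.99, -2.32 and -2.53 on undernourished AL, and -3.35, -3.13, -2.47 and -3.48 on undernourished CR. The control groups did not overlap (-1.15 ± 0.36, adjusted p = 0.025). H2-Aa fell by as much in offspring of undernourished dams, by 1.20 ± 0.36 (2.30-fold, adjusted p = 0.030), where the highest CR value, on array 3, lay above undernourished AL array 4.

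H2-Ab1 read 1.13, 0.54, 0.49 and 0.06 on control AL arrays 1 to 4, -1.19, -0.82, -0.76 and 0.38 on control CR, 0.27, 1.01, -0.53 and 0.23 on undernourished AL, and -0.92, -0.15, -0.26 and -0.98 on undernourished CR. Control CR array 4 lay within the control AL range. The differences were -1.15 ± 0.37 (adjusted p = 0.025) and -0.82 ± 0.37 (adjusted p = 0.13), and all 3 of its probes gave the same sign in both. Cd74 read 0.92, 0.12, 0.48 and -0.12 on control AL arrays 1 to 4, -0.70, -0.62, -0.25 and 0.55 on control CR, 0.54, 1.17, -0.17 and 0.09 on undernourished AL, and -0.47, 0.22, 0.17 and -0.35 on undernourished CR. All groups overlapped, with differences of -0.60 ± 0.33 (adjusted p = 0.18) and -0.51 ± 0.33 (adjusted p = 0.29).

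Neither class II chain passed in offspring of control dams with the brain marker level as a covariate: H2-Aa was then -0.77 (adjusted p = 0.32) and H2-Ab1 -0.70 (adjusted p = 0.37). In offspring of undernourished dams H2-Aa kept its call with that covariate, with quantile normalization and with scaling to the array median. It lost it with the authors' deposited log2 values, and without undernourished AL array 1 or 2 or undernourished CR array 1, 2 or 4. In offspring of control dams both chains lost their call with scaling to the array median and with the authors' values, and H2-Aa also with quantile normalization. Of 8 further class II pathway genes, H2-DMb1, a chain of the peptide exchanger, fell by 1.21 ± 0.37 in offspring of control dams, beside 15.1% of all genes that fell. The class II transcription factor Rfx5 rose by 1.73 ± 0.24 there and by 1.07 ± 0.24 in offspring of undernourished dams.

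S100a8 and S100a9 encode the subunits of calprotectin, the main cytosolic protein of neutrophils, and varied most between replicates. S100a8 read -4.44, -3.33, -1.37 and -4.30 on control AL arrays 1 to 4, -5.60, -0.79, -2.02 and -5.27 on control CR, -5.70, -4.70, -5.90 and -4.46 on undernourished AL, and -5.64, -5.02, -5.12 and 2.08 on undernourished CR. Control AL array 3, control CR arrays 2 and 3 and undernourished CR array 4 stood above the rest, and undernourished CR array 4 was the highest of all 16. S100a9 read -1.38, -0.03, 1.60 and -1.89 on control AL arrays 1 to 4, -1.96, -2.18, -2.27 and -2.36 on control CR, -2.25, -0.75, -1.58 and -0.65 on undernourished AL, and -1.62, -1.52, -2.39 and 1.39 on undernourished CR. S100a9 was also high on control AL array 3 and undernourished CR array 4, but not on control CR array 2. Neither gene passed in either comparison (S100a8 -0.06 ± 1.50 and 1.77 ± 1.50, S100a9 -1.77 ± 0.78 and 0.28 ± 0.78), though S100a9 did not overlap between the control groups.

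**Figure D4:**
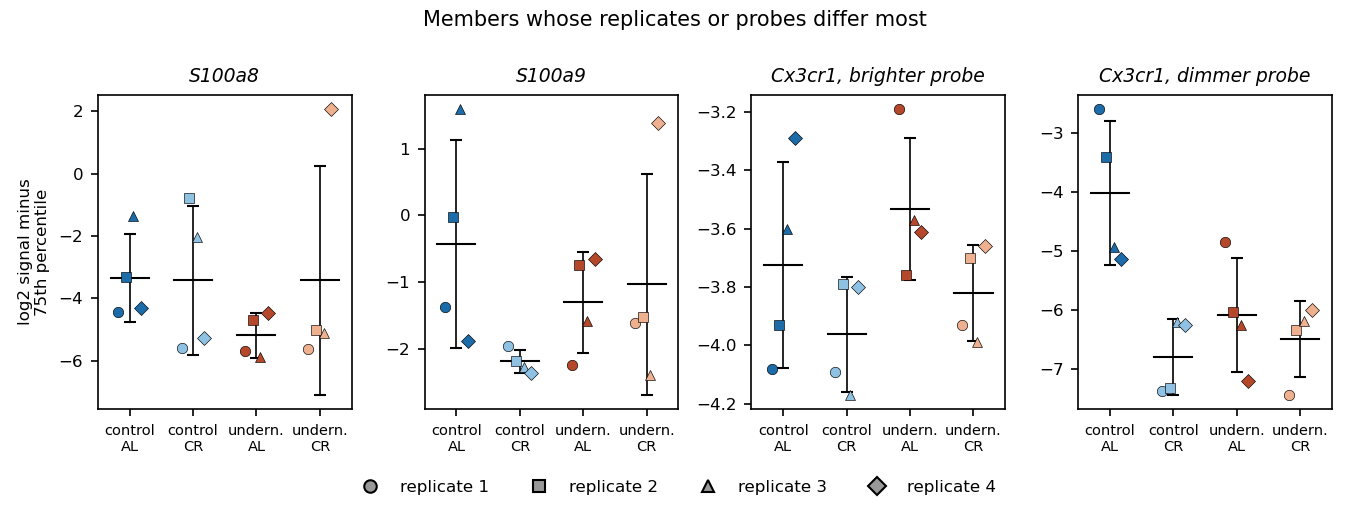
Log2 signal minus the 75th percentile (y axis) of S100a8, S100a9 and the brighter and dimmer probe of Cx3cr1 on each array of the 4 groups; symbols are replicates, bars the group mean and SD (n = 4). S100a8 reached 2.08 on undernourished CR array 4, and the dimmer Cx3cr1 probe ran from -5.13 to -2.59 on control AL.

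Maternal diet was compared within each offspring diet. In AL offspring no member passed (limma; lowest adjusted p 0.15), beside 0.0201% of all genes that were lower and 0.0121% that were higher, while 10 members had an unadjusted p under 0.05, all lower, beside 19.3% of all genes in either direction. The median of the 35 was -0.41, against 0.07 over all genes. Only for S100a8 did the undernourished arrays lie wholly below the control arrays, beside 2.1% of all genes, and for no member above them, beside 3.11%. Same-numbered AL arrays shared a slide, and those numbered 1 and 4 deviated together more than those numbered 2 and 3. Whether the numbers pair samples was not tested. With the replicate number as a block within each offspring diet, also added after seeing the data, 3 members were lower in undernourished AL, beside 4.58% of all genes: Coro1a by 1.19 ± 0.23 (adjusted p = 0.026), Tyrobp by 1.09 ± 0.23 (adjusted p = 0.035) and Trem2 by 1.47 ± 0.35 (adjusted p = 0.048). With the slide as a block Aif1 joined them (-0.83 ± 0.19, adjusted p = 0.021), beside 6.19%, and the same 4 were called without control AL array 4, beside 6.65%.

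All 4 of these genes are shared with microglia, as are 25 of the 35 members tested. Coro1a, Trem2 and Aif1 followed the brain marker order over the control AL arrays, and Tyrobp was highest there on array 1. The order was not particular to these genes. Cd52, Ctss and H2-Ab1, the last little or not expressed by resting microglia, also followed it and were not called here. Cd163 and the brighter Cx3cr1 probe ran in the reverse order. Within slide 1 (AL arrays 1 and 2) Coro1a differed by -1.42, Trem2 by -1.76, Tyrobp by -0.92 and Aif1 by -1.0. Within slide 2 (AL arrays 3 and 4) the same genes differed by -0.97, -1.17, -1.27 and -0.66. Without the 5 arrays that carried skin or liver RNA Aif1 was 0.01 and Coro1a 0.12. The brain markers' part in these differences was not tested. The fit with the brain marker level as a covariate called no member in this comparison, but neither did the fit without it. As it held no slide or replicate block, it cannot show whether the calls made with a block depend on brain transcript.

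Over the 35 members the median difference within slide 1 was -0.15, with 20 below 0, and within slide 2 it was -0.78, with all 35 below 0. The 2 slides thus differed in size, and Cd163 went from 0.96 on slide 1 to -1.33 on slide 2.

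**Figure D5:**
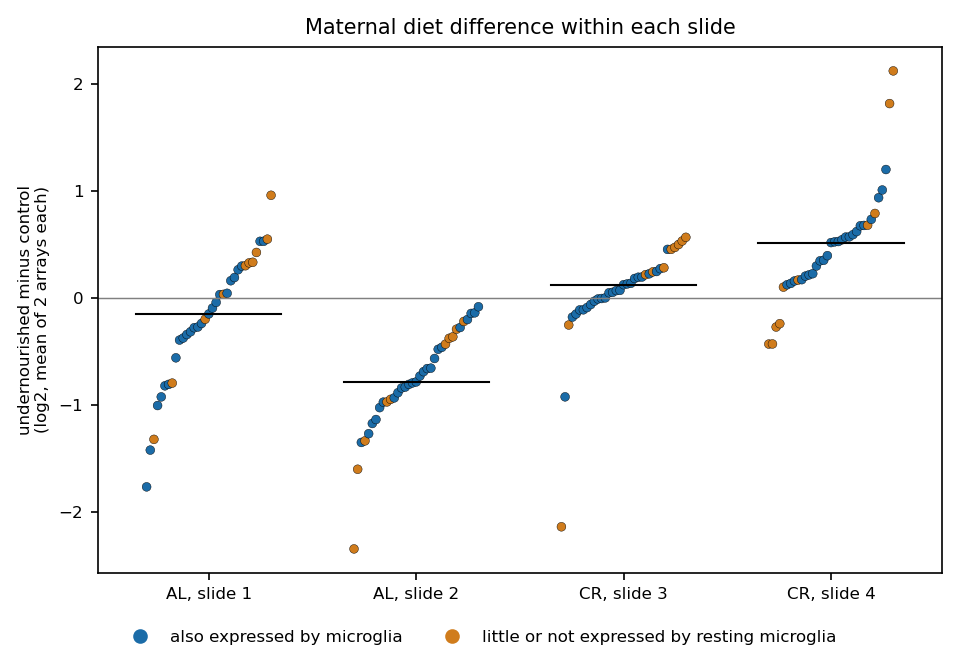
Undernourished minus control (y axis, log2, mean of 2 arrays each) for the 35 members within each of the 4 slides, sorted by value within a slide; blue points are members also expressed by microglia, orange points the others, and lines are medians. The medians were -0.15 and -0.78 on the AL slides and 0.13 and 0.52 on the CR slides.

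In CR offspring, whose arrays carried little brain transcript, no member differed by maternal diet (limma, adjusted p = 0.9999 for all 35, and none with an unadjusted p under 0.05, beside 2.88% of all genes). The median was 0.25, and 31 of 35 lay above 0. Spi1, close to background, was the only member with no overlap, beside 1.37% of all genes higher and 1.35% lower without overlap. Within slide 3 the median was 0.13, with 12 members below 0, and within slide 4 it was 0.52, with 4 below 0. The intervals still allow sizeable differences, for example from -0.26 to 0.34 for C1qb and from -0.79 to 1.53 for Ccr2. Averaged over both offspring diets no member passed (lowest adjusted p 0.47), and 1 of 35 had an unadjusted p under 0.05, as had 2609 of all 24826 genes.

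Further genes of these pathways were read from the same fit in offspring of control dams. Each count stands beside 15.1% of all genes that fell there and 17.2% that rose. Of 14 CSF1 ligand and ITAM signalling genes 4 fell, among them Nckap1l (-1.10 ± 0.19), Inpp5d (-0.52 ± 0.14) and Vav1 (-1.20 ± 0.38), which are haematopoietic signalling proteins. Of 10 Fc and phagocytic receptors 4 fell: Havcr2 (-2.09 ± 0.47), Fcgr1 (-1.54 ± 0.31), Sirpa (-1.43 ± 0.33) and Mertk (-0.57 ± 0.20). Of 13 complement genes 1 fell, and Cd59a, which blocks the membrane attack complex, rose by 0.52 ± 0.16. Of 18 chemokine and cytokine genes 4 fell, namely Cx3cl1 (-3.53 ± 0.56), Ccl6 (-1.49 ± 0.43), Ccl4 (-1.25 ± 0.33) and Ccl8 (-1.08 ± 0.28), and Nos2 passed as higher. The median difference of the 18 was 0.08, against 0.07 over all genes. Nos2 was well above background on no control AL array and on 4 arrays in all, so its size is not given. Cx3cl1, the ligand of Cx3cr1, is abundant in neurons and read 3.98, 3.28, 1.60 and 0.63 on control AL arrays 1 to 4, the brain marker order.

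In offspring of undernourished dams none of the ITAM signalling genes, the Fc and phagocytic receptors or the complement genes passed (limma). Of all genes 9.86% fell there and 10.4% rose. Among the chemokine genes there Cx3cl1 (-1.95 ± 0.56) and Ccl8 (-0.94 ± 0.28) fell, and Ccl7 passed as higher. Ccl7 was well above background on no undernourished AL array, so its size is not given.

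Markers of other blood cells were read in offspring of control dams, beside 15.1% of all genes that fell and 17.2% that rose. Among 11 T and NK cell markers Nkg7 (-0.66 ± 0.21) and Klrb1c (-5.92 ± 0.65) fell, and the median was -0.02. Klrb1c read 2.39, 2.20, -0.49 and -0.92 on control AL arrays, again the brain marker order, and between -5.25 and -4.91 on control CR. The summed T and NK signal was 1.48 to 5.91 on control AL and 0.77 to 0.87 on control CR. Such sums of linear signals weigh bright genes most, and Klrb1c was bright on control AL arrays 1 and 2. Over the 11 markers 6 differences lay below 0. Among 6 B cell markers Mzb1 rose by 0.67 ± 0.20, and among 5 neutrophil markers Mmp8 passed as higher, though it was well above background on no control AL array. None of 5 mast cell, 3 dendritic cell, 5 red cell or 9 liver markers changed there. Of 9 fat cell markers Retn rose by 1.34 ± 0.29 and Pnpla2 fell by 0.70 ± 0.22, and of 13 skeletal muscle markers Myh4 (-0.57 ± 0.13) and Tnnc2 (-0.73 ± 0.20) fell. Of the skin markers 13 of 15 fell, and of the brain markers 31 of 38 fell and 3 rose, with a median of -4.30.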

How the data were processed

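RNA of 16 pools was labelled with Cy3 and hybridised to 1-colour Agilent arrays. Deposited intensities were background-subtracted by Agilent Feature Extraction 10.5.1.1, per the file headers. Outlier spots were left out, spots of a probe averaged, and log2 of the intensity taken minus each array's 75th percentile (387 to 829). A probe was kept (32079 of 41174) if 4 or more arrays had it well above background, and a gene was represented by its brightest probe. Between 66.4% and 78.5% of non-control spots were well above background per array. limma 3.58.1 (R 4.3.3) was fitted over all 16 arrays with 1 mean per group, and p-values were adjusted over 24826 genes (Benjamini-Hochberg, call under 0.05). Of these 24826, 15019 had a matched gene symbol, as all tested members did. Each accession without a symbol was counted as a gene of its own, also in the shares of all genes. The fit was tested on simulated data with normal noise and genes shifted in control CR. It recovered 70 of 100 genes shifted by 1 log2 unit and 92 of 100 shifted by 2, with 10 false calls.

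The authors' deposited log2 values, centred on each probe's median, served as an alternative. The sources used here do not give how they were normalized: differences between arrays correlated with the scanner values at a median r of 0.858 with a slope of 0.578.

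The members and gene lists were chosen with earlier results of these data known. All 36 members are accounted for by role. Values on every array are given for up to 3 members of a role with the smallest p in offspring of control dams, for members called by maternal diet, and for Lyz2, Cd163, Mrc1, Ccr2, Cd74, H2-Aa, H2-Ab1, S100a8 and S100a9. Same-numbered AL arrays deviated together (r of 0.393, 0.123, 0.112 and 0.441 over all genes), and same-numbered CR arrays did not throughout (0.226, 0.107, 0.017 and 0.058). The numbers were used as a block within each offspring diet, and whether they pair samples was not tested. Normexp used the median spot signal, and the array's median background where a spot's local background was flagged as an outlier. Some single genes of the pathway and marker lists are counted but not reported here by name.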

Additional observations from a re-analysis of the deposited data

Results flagged for a closer look

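In each group of 4 arrays the highest or lowest value was set against its nearest neighbour, and 9 of 140 combinations of member and group held an array whose gap, as a share of the group's range, passed Dixon's 95% critical value, where chance gives about 1 in 20. Undernourished AL array 2 stood high for Laptm5 (-2.47, the next at -3.40) and for Lyz2 (-2.05, the next at -3.07). Control AL array 1 stood high for Cd52 (-1.04, the next at -1.84). Control CR array 4 stood high for Mpeg1 (-0.78, the next at -1.32) and for Ccr2 (-4.65, the next at -5.62). Control CR array 2 stood low for Fcgr2b (-3.04, the next at -2.63), and control CR array 3 stood low for Cybb (-4.96, the next at -4.12). Undernourished CR array 3 stood high for Mrc1 (-0.63, the next at -1.17). Undernourished CR array 4 stood high for S100a8 (2.08, the next at -5.02), the widest of these gaps.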

How the results depend on the processing

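The count of members lower in control CR (22) moved to 14 with the authors' deposited log2 values, 5 with the brain marker level as a covariate, 13 without control AL arrays 1 and 2, 0 without the 5 arrays that carried skin or liver RNA and 2 with the microglia marker level as a covariate, the last chosen after seeing the data. It ranged from 16 to 24 when each array was left out in turn. The count in undernourished CR (3) moved to 12 of 35 with normexp, which called 40.7% of all genes lower, to 1 with scaling to the array median, 0 with the authors' deposited log2 values, which called 1 member higher, and 0 without the 5 arrays. It ranged from 1 to 3 with an array left out. The count in undernourished AL against control AL (0) moved to 4 with the slide as a fixed block and to 3 with the replicate block within each offspring diet, chosen after seeing the data, and ranged from 0 to 4, reaching 4 without control AL array 4. The cause of these moves was not tested. The covariates and left-out arrays leave fewer degrees of freedom, and the brain marker level was higher on every AL array than on any CR array. With that covariate both standard errors and differences moved. In control CR the SE of Ptprc went from 0.24 to 0.34 at a difference of -1.01, and the difference of Coro1a went from -1.93 to -0.70. Without the 5 arrays Aif1 in undernourished AL turned to 0.0055 and Coro1a to 0.12. With the replicate number as a block over all groups 20 members were lower in control CR and 2 in undernourished CR. Counts for maternal diet in CR offspring, averaged over offspring diets, and for the interaction were 0 under every alternative run. Control CR counts under no filter (22), the filter on all arrays (19 of 30), the mean of a gene's probes (22) and the slide as a random block (20) stayed within 1.5 times. Spi1, Cd53, Itgam, Ccr2 and S100a8 were not well above background on some arrays, which limits their differences.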
